A study of Homo sapiens with 12 samples.

Results

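Goblet cell genes were followed in HT29 cells, a line established from a human colorectal adenocarcinoma, after treatment with a water extract of Aconitum carmichaeli Debeaux (ACD), an aconite used in traditional medicine. The 9 genes were the trefoil peptides TFF1, TFF2 and TFF3, the mucus partners FCGBP, CLCA1 and AGR2, and the transcription factors SPDEF, ATOH1 and KLF4. They were chosen by symbol with their CPM (counts scaled to a common library size) in all 4 groups in view. Their dose differences are therefore only described, and the test calls printed for them below are not read as results. They are 9 of the 60675 genes in the count table, and 8 of them passed the filter on low counts that left 15374 genes for testing. CLCA1 did not pass. HT29 cells were treated for 24 h with vehicle, which was PBS containing 2% DMSO before it was added to the medium, or with ACD at 20 (low dose), 100 (medium dose) or 500 µg/mL (high dose), for which the extract was dissolved in the same solution, with 3 RNA-seq libraries in each group. All 12 libraries came from this 1 cell line, and nothing stated that the replicates were separate cultures, so the p-values measure only the spread between these libraries. Library totals lay between 15941255 and 33866644 expected counts, with both extremes at the high dose.

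Goblet cells are the mucus-secreting cells of the intestinal epithelium. They arise from progenitors in which ATOH1, a basic helix-loop-helix factor, escapes repression by Notch signalling, and SPDEF and KLF4 act in their maturation. Their granules hold the gel-forming mucin MUC2 together with FCGBP, CLCA1 and TFF3, and AGR2 is needed in the endoplasmic reticulum for mucin to be folded. TFF1 and TFF2 are trefoil peptides mainly of the stomach, while TFF3 is the trefoil peptide of the intestine.

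The windows before the start sites of ATOH1, AGR2, FCGBP and KLF4 are shown because, at 1 dose or more, all 3 libraries lay above or all below every vehicle library. This held for TFF3 too, but no RefSeq window was at hand for TFF1, TFF2 or TFF3. Each window is the 250 bases before the RefSeq start (GRCh38.p14), 5′ to 3′ on the strand of the gene. ATOH1 lies on the plus strand and its window is chr4:93828503-93828752. AGR2 (chr7:16805000-16805249), FCGBP (chr19:39934635-39934884) and KLF4 (chr9:107489770-107490019) lie on the minus strand. The AGR2 and KLF4 windows fall inside the longest GENCODE extent of these genes, which starts further upstream. Capitals mark matches on either strand to 3 motifs, namely the E-box CAGNTG of basic helix-loop-helix factors such as ATOH1, the KLF box CACCC, and GCGTG, the core letters of the aryl hydrocarbon receptor element.
ATOH1: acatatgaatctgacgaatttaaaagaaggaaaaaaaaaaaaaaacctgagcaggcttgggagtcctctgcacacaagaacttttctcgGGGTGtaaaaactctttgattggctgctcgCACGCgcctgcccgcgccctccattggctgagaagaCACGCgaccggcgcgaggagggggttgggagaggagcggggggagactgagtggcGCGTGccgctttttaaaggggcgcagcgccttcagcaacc
AGR2: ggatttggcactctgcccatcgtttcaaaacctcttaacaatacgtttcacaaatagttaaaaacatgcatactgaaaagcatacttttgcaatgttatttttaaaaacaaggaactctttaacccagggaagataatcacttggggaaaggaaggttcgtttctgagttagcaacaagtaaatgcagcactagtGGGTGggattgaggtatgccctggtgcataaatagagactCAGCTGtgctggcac
FCGBP: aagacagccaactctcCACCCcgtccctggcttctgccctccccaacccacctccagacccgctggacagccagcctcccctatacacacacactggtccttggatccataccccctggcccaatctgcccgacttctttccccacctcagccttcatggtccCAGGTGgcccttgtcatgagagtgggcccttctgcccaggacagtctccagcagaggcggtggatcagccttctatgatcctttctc
KLF4: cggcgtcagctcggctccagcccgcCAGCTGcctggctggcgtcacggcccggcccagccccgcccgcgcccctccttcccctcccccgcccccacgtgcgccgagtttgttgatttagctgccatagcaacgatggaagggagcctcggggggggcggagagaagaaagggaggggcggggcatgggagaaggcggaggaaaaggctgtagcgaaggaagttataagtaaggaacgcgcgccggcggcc

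The ATOH1 window held 3 matches to GCGTG, which began 131, 95 and 40 bases before the start, and 1 KLF box at 161. The AGR2 window held a KLF box at 55 and an E-box at 15, and the FCGBP window a KLF box at 234 and an E-box at 87. In the KLF4 window there was 1 E-box, at 225. Of the members with a RefSeq window that are not shown, CLCA1 had 1 KLF box and 3 E-boxes, and SPDEF matched none of the 3 motifs. No match overlapped another. Among 35116 RefSeq windows of the same length, 42.5% held the E-box, 54.7% the KLF box and 32.2% GCGTG, so single matches were common. The share of windows with 3 matches was not counted, so the 3 matches in the ATOH1 and CLCA1 windows have no background here.

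In the vehicle libraries, the levels per kb of transcript spread over a wide range. AGR2 stood highest at 125 CPM per kb, followed by SPDEF at 11.6 and TFF3 at 10.4 CPM per kb. SPDEF and TFF3 overlapped in their 3 libraries, so their order was not separated. KLF4 had 2.69, FCGBP 2.40 and ATOH1 2.06 CPM per kb. FCGBP lay just under every KLF4 library (2.64 against 2.65 CPM per kb at the nearest) and overlapped ATOH1. TFF2 (1.46 CPM per kb) and TFF1 (1.43 CPM per kb) were at the lower end and overlapped each other. TFF2 ranged from 1.01 to 2.28 CPM per kb and so also overlapped ATOH1 and FCGBP. CLCA1 had no count in any vehicle library. At the high dose ATOH1 was the lowest of the 8 tested genes, at 0.830 CPM per kb, and its highest library (0.987 CPM per kb) was under the lowest library of TFF1 (1.10 CPM per kb). It overlapped FCGBP, whose lowest high-dose library was at 0.841 CPM per kb, so the order of ATOH1 and FCGBP was not separated there.

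**Figure D1:**
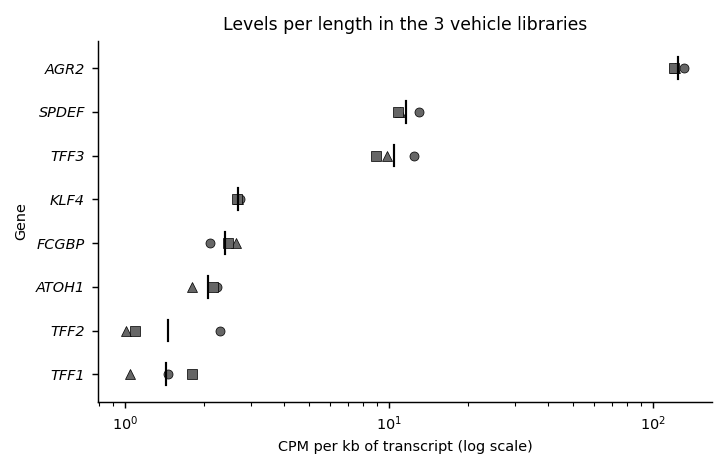
Level of the 8 tested genes in the 3 vehicle libraries, as CPM per kb of transcript on a log axis, with 1 point per library and a bar at the mean. AGR2 stands alone at 125 CPM per kb, and TFF1 and TFF2 overlap near 1.4 to 1.5 CPM per kb.

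ATOH1 (ENSG00000172238, chromosome 4, 93828753 to 93830964, a single-exon gene), the factor that commits progenitors to the secretory lineage, was lower at the medium and the high dose. Its level was 4.95, 3.97 and 4.75 CPM in the vehicle libraries. Low-dose libraries had 3.78, 4.86 and 3.45 CPM, medium-dose libraries 2.39, 2.97 and 2.83 CPM and high-dose libraries 1.49, 1.84 and 2.18 CPM. The low dose overlapped vehicle, whereas the medium and high doses lay below every vehicle library and apart from each other. The mean CPM was 4.56 ± 0.518 in vehicle, 4.03 ± 0.741 in low-dose, 2.73 ± 0.303 in medium-dose and 1.84 ± 0.349 in high-dose libraries (SD, n = 3), so the high-dose mean was 40.3% and the medium-dose mean 59.9% of vehicle. The log2 fold changes in CPM were −0.16 (SE 0.17), −0.72 (SE 0.17) and −1.28 (SE 0.18) from the low to the high dose. In bulk RNA, fewer cells of a type and less RNA per cell cannot be told apart.

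SPDEF (ENSG00000124664, chromosome 6, 34537802 to 34556333), an ETS factor that drives goblet cell maturation downstream of ATOH1, stayed within a narrow range. The vehicle libraries had 24.8, 21.0 and 20.7 CPM, the low-dose libraries 22.6, 22.8 and 21.8 CPM, the medium-dose libraries 23.1, 19.3 and 22.4 CPM and the high-dose libraries 27.5, 21.1 and 24.4 CPM. All doses overlapped vehicle, and the log2 fold changes were 0.02 (SE 0.11), −0.04 (SE 0.11) and 0.14 (SE 0.11) from low to high. The high-dose mean of SPDEF was 110% of vehicle.

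KLF4 (ENSG00000136826, chromosome 9, 107484852 to 107490482), a zinc finger factor linked to cell cycle exit and to goblet cell differentiation in the colon, was higher at the medium and high doses. Vehicle libraries had 8.04, 7.88 and 7.78 CPM, a narrow spread (7.90 ± 0.130 CPM, SD, n = 3). Low-dose libraries had 7.52, 7.36 and 8.24 CPM, medium-dose libraries 10.2, 8.39 and 8.84 CPM, and high-dose libraries 11.7, 10.4 and 9.62 CPM. Every medium-dose and high-dose library lay above every vehicle library, and the low dose overlapped vehicle. The log2 fold changes were −0.04 (SE 0.10), 0.21 (SE 0.10) and 0.42 (SE 0.10), so the high-dose mean was 134% of vehicle and stayed under a fold change of 1.5. KLF4 overlaps a long noncoding RNA on the opposite strand over 766 bases, and the strand setting of the counting was not stated.

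**Figure D2:**
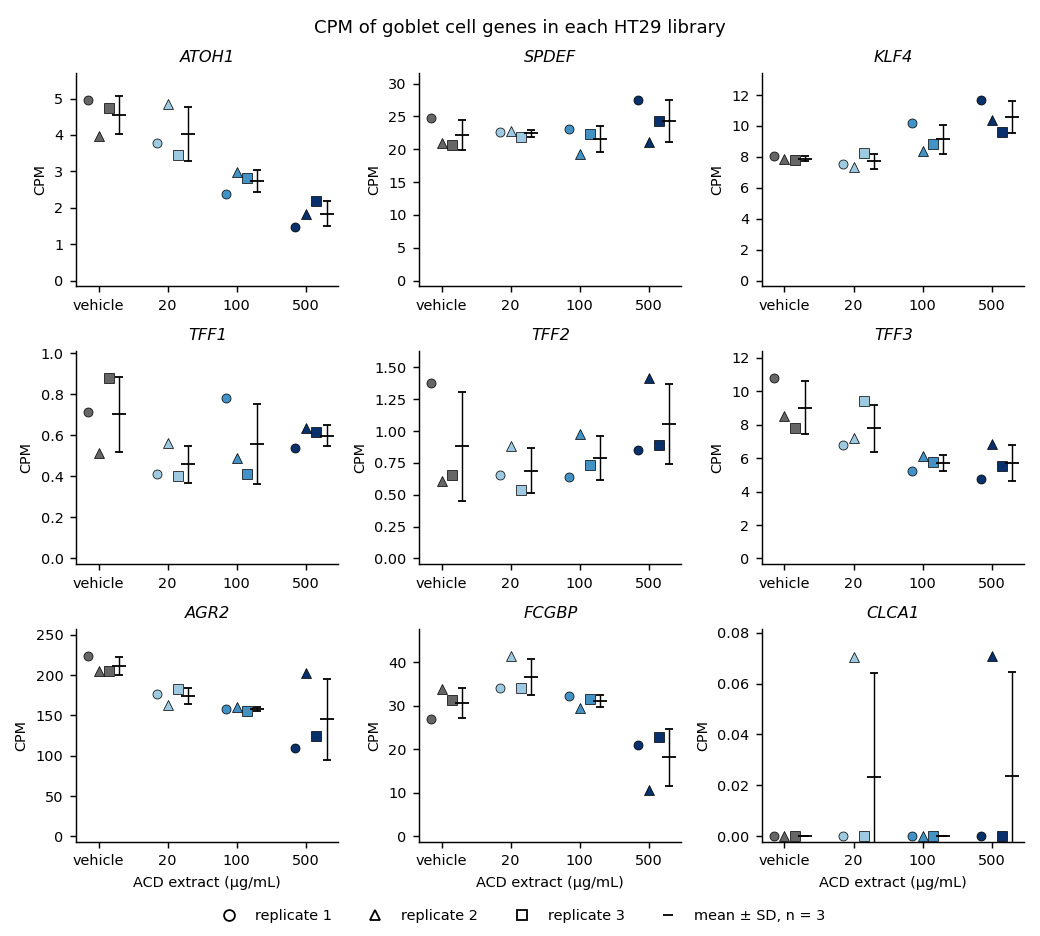
CPM of each of the 9 genes in the 12 libraries by ACD dose, with 1 point per library (its shape gives the replicate number) and the mean ± SD of 3 libraries beside them. ATOH1 is lower at 100 and 500 µg/mL, KLF4 is higher there, SPDEF overlaps vehicle at every dose, and high-dose replicate 2 (triangle) lies apart from the other 2 for AGR2 and FCGBP.

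The 3 trefoil genes lie side by side on the minus strand of chromosome 21 in the order TFF3 (42311667 to 42315409), TFF2 (42346357 to 42350997) and TFF1 (42362282 to 42366535), within 54.9 kb and with no other protein-coding gene between them. TFF3 (ENSG00000160180), the intestinal trefoil peptide, had 10.8, 8.52 and 7.78 CPM in vehicle. Low-dose libraries had 6.80, 7.19 and 9.40 CPM, medium-dose libraries 5.23, 6.14 and 5.77 CPM, and high-dose libraries 4.73, 6.87 and 5.53 CPM. All medium-dose and high-dose libraries were below the lowest vehicle library, and the low dose overlapped vehicle. The means were 9.03 ± 1.57 CPM in vehicle and 5.71 CPM at both upper doses (SD 0.454 at the medium and 1.08 at the high dose, n = 3), with log2 fold changes of −0.21 (SE 0.16), −0.65 (SE 0.17) and −0.67 (SE 0.17) from low to high. The medium and high doses overlapped each other.

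TFF1 (ENSG00000160182) and TFF2 (ENSG00000160181) were low, with 170 and 246 counts in all 12 libraries together. TFF1 had 0.715, 0.515 and 0.879 CPM in vehicle and 0.540, 0.637 and 0.615 CPM at the high dose, and TFF2 had 1.38, 0.606 and 0.659 CPM in vehicle and 0.856, 1.42 and 0.892 CPM at the high dose. At the low and medium doses TFF1 ranged from 0.403 to 0.780 CPM and TFF2 from 0.537 to 0.979 CPM. Both genes overlapped vehicle at all doses. Their log2 fold changes at the high dose were −0.21 (SE 0.30) for TFF1 and 0.27 (SE 0.35) for TFF2, so changes of the size seen in TFF3 were not resolvable at this depth. Of the 4 protein-coding neighbours of the trefoil genes, UMODL1, TMPRSS3 and UBASH3A did not pass the filter on low counts. ABCG1, a cholesterol transporter gene 14422 bases from TFF3 on the plus strand, rose at the high dose to 7.70 ± 0.913 CPM, against 4.64 ± 0.278 CPM in vehicle (log2 fold change 0.75, SE 0.10, edgeR adjusted p = 0.00108).

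AGR2 (ENSG00000106541, chromosome 7, 16791811 to 16833433), a protein disulfide isomerase that handles mucin in the endoplasmic reticulum, was the most abundant of the 9 genes and lay below vehicle at every dose. It had 224, 205 and 205 CPM in vehicle (211 ± 10.8, SD, n = 3). Low-dose libraries had 177, 163 and 183 CPM, medium-dose libraries 157, 160 and 156 CPM and high-dose libraries 110, 203 and 124 CPM. No library of any dose reached the lowest vehicle library, although high-dose replicate 2, at 203 CPM, came close to it. The log2 fold changes were −0.28 (SE 0.17), −0.42 (SE 0.17) and −0.54 (SE 0.17) from low to high. Without high-dose replicate 2 the high-dose log2 fold change of AGR2 was −0.85 (SE 0.07), over 1.5 times the value with it.

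FCGBP (ENSG00000275395, chromosome 19, 39863323 to 39934626), a large von Willebrand domain protein bound to MUC2 in mucus, was lower at the high dose. It had 26.9, 33.7 and 31.4 CPM in vehicle. Low-dose libraries had 34.1, 41.4 and 34.2 CPM, medium-dose libraries 32.1, 29.5 and 31.5 CPM and high-dose libraries 20.9, 10.8 and 22.9 CPM. The low-dose libraries lay above every vehicle library (the nearest at 34.1 against 33.7 CPM), the medium dose overlapped vehicle, and the high dose lay below. The log2 fold changes were 0.25 (SE 0.20), 0.01 (SE 0.20) and −0.73 (SE 0.20). Without high-dose replicate 2, which had the lowest value of all, the high-dose log2 fold change was −0.49 (SE 0.10). CLCA1 (ENSG00000016490, chromosome 1, 86468368 to 86500259), a secreted metalloprotease of goblet cell mucus, had 3 counts in all, 1 in high-dose replicate 2 and 2 in low-dose replicate 2. In the other 10 libraries a count of 0 allows up to 3 counts, which corresponds to 0.0909 to 0.165 CPM in these libraries, for counting error only.

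**Figure D3:**
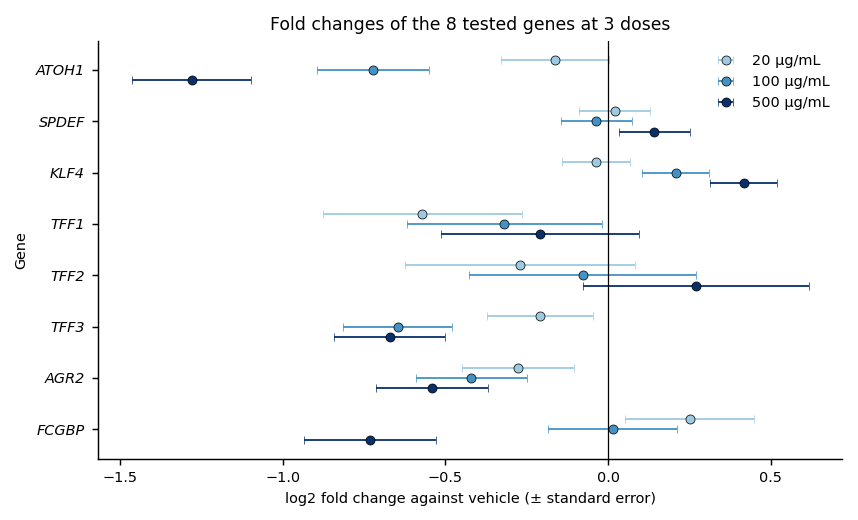
Log2 fold change against vehicle (± standard error) of the 8 tested genes at 20, 100 and 500 µg/mL ACD, from the edgeR fit of all 12 libraries. ATOH1 goes from −0.16 to −1.28 and KLF4 from −0.04 to 0.42, while FCGBP is near or above 0 at the lower doses and at −0.73 at the highest.

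High-dose replicate 2 stood apart from the other libraries. The SD over genes of its log2 difference from the other 2 libraries of its group was 0.502, against 0.102 to 0.293 in the remaining 11 libraries. This difference moved with transcript length, with a median of 0.57 in genes under 1 kb and of −0.50 in genes over 8 kb. Vehicle replicate 1 had a smaller gradient in the same direction, with medians of 0.30 and −0.21. It also held the highest vehicle value of TFF3, AGR2, TFF2, SPDEF, ATOH1 and KLF4, but not of TFF1 or FCGBP. In high-dose replicate 2 the members deviated by 0.80 for AGR2 (1697 bases), 0.42 for TFF3 (867 bases), 0.65 for TFF2 (603 bases), −0.29 for SPDEF (1910 bases) and −1.02 for FCGBP (12787 bases). ATOH1 deviated by 0.03, KLF4 by −0.03 and TFF1, the shortest member (492 bases), by only 0.13. The part of transcript length in the values of AGR2, FCGBP and TFF3 was not tested, but with an offset for length in the fit, chosen after seeing the data, the high-dose log2 fold changes were −0.62 (SE 0.11) for AGR2, −0.68 (SE 0.12) for FCGBP, −0.62 (SE 0.12) for TFF3 and −1.32 (SE 0.19) for ATOH1.

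**Figure D4:**
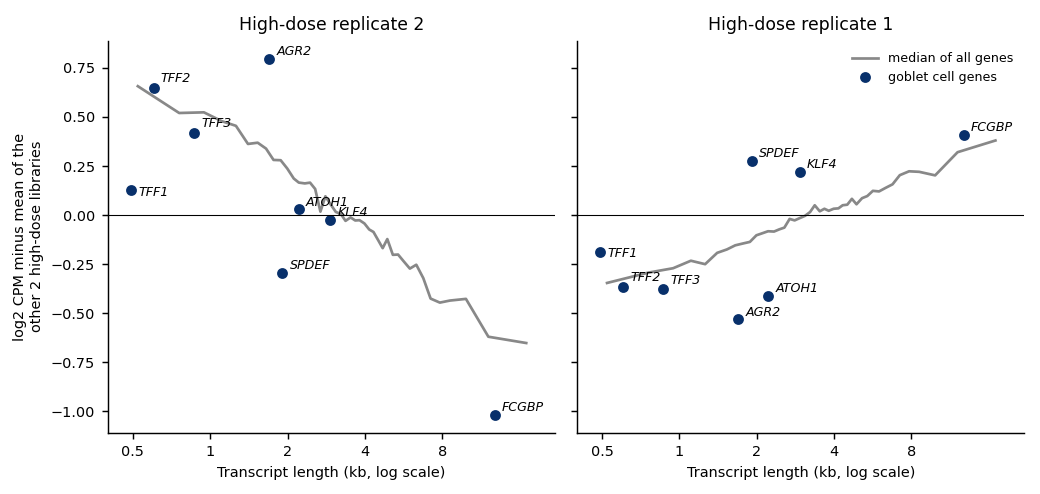
Difference in log2 CPM between high-dose replicate 2 (left) or replicate 1 (right) and the mean of the other 2 high-dose libraries, against transcript length on a log axis. The line is the running median of all genes over 5 CPM and the points are the 8 tested genes, with AGR2 at 0.80 and FCGBP at −1.02 in replicate 2.

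A differentially expressed gene (DEG) had an adjusted p under 0.05 in the edgeR quasi-likelihood test and a fold change over 1.5. By this rule 2 of the 8 tested members, ATOH1 and TFF3, were DEGs at the high dose, both lower, where 2.93% of all tested genes were DEGs (1.26% higher and 1.68% lower). At the low and medium doses none of the 8 was a DEG by edgeR, with 0 and 3 at an unadjusted p under 0.05, while DESeq2 gave 0 and 2. The share of all genes that were DEGs was 0.111% at the low dose and 0.676% at the medium dose (0.384% higher and 0.293% lower). Because the members were chosen with these contrasts in view, nothing is read from these counts. The member count also moved with the setting, from 1 to 4 at the high dose and from 0 to 2 at the medium dose. At the medium dose edgeR called TFF3 and ATOH1 without high-dose replicate 2 or with vehicle and that dose alone, and TFF3 with no filter on low counts. At the high dose TFF3 (log2 fold changes from −0.81 to −0.53) was no longer called when any 1 of vehicle replicates 1 (−0.53), 2 or 3, high-dose replicates 1 or 3, the 3 medium-dose replicates or low-dose replicates 1 or 2 was left out.

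The libraries of 1 member lay below all vehicle libraries at the low dose, of 3 at the medium dose and of 4 at the high dose, and those of 1 member lay above at each dose. Over all tested genes these shares were 9.61% below and 11.4% above for the low dose, 14.1% and 14.5% for the medium dose, and 11.5% and 10.5% for the high dose. The median log2 fold change of the 8 members was −0.19 at the low, −0.20 at the medium and −0.38 at the high dose, against medians between −0.01 and 0.01 over all tested genes. As the members were chosen with these values in view, nothing is read from their non-overlap counts or their medians. When libraries were scaled by their totals only, the median of all genes at the high dose moved to −0.13, and the log2 fold changes of ATOH1 and KLF4 became −1.41 and 0.28. The DEGs at the high dose then split into 140 higher and 568 lower, against 193 and 258.

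For the members with a mean of at least 1 CPM over the 12 libraries and group means of log2 CPM that differed by more than 1.5-fold (TFF1 and TFF2 were under that mean), the genes with the most similar profile were found among 13140 genes over the 12 libraries, by the root mean square difference in centred log2 CPM. For ATOH1 they were LINC00261 (0.169), PGM2L1 (0.198) and FILIP1L (0.204). For TFF3 they were RASL11A (0.108), LINC00869 (0.134) and PTRHD1 (0.144). For AGR2 they were ENSG00000261116 (0.0754), AAMDC (0.0925) and RGS2 (0.0979). For FCGBP they were TNS1 (0.113), B3GALT5 (0.114) and LMF1 (0.141). The 4 groups of names did not share a gene, and the profiles included the deviation of high-dose replicate 2.

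The other genes of mucus production and secretory fate were read in 8 lists with 147 genes, of which 123 were tested. The lists were also chosen with earlier results of these data known. Their counts and medians beside those of all genes are therefore descriptions only. Of the 123 tested genes, 10 were DEGs at the high dose, 3 higher and 7 lower, and 3 at the medium dose, 2 higher and 1 lower. Over all tested genes the DEGs made up 2.93% at the high and 0.676% at the medium dose, and 7534 of 15374 genes had a high-dose log2 fold change below 0. At the low dose edgeR called 0 of the 123, with 9 at an unadjusted p under 0.05, and DESeq2 also called 0. Without high-dose replicate 2 the count was 18 at the high and 6 at the medium dose, and without vehicle replicate 2 it was 1 at the medium dose. With scaling by library totals only, the high-dose split was 1 higher and 11 lower. With vehicle and the high dose fitted alone, BCAS1, SYTL2, GALNT4 and ST3GAL4 were DEGs, and edgeR no longer called CREB3L1 (adjusted p = 0.101), HES6 (0.101), NEUROG3 (0.151), POU2F3 (0.168), DLL4 (0.0712) or JAG2 (0.0728).

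The gel-forming mucins MUC2, MUC5AC, MUC5B and MUC6 gave no DEG at the high dose, with 0 of the 4 at an unadjusted p under 0.05 and 0 called by DESeq2. MUC2, the main mucin of colonic mucus, had 27.8, 34.9 and 36.5 CPM in vehicle and 31.2, 8.28 and 26.8 CPM at the high dose (log2 fold change −0.55, SE 0.34, edgeR adjusted p = 0.398). MUC5AC, a mucin of the stomach surface, had 96.9, 122 and 132 CPM in vehicle and 239, 73.8 and 216 CPM at the high dose (log2 fold change 0.60, SE 0.32, edgeR adjusted p = 0.339). At the medium dose MUC5AC had 192, 180 and 172 CPM, above every vehicle library (log2 fold change 0.63, SE 0.32, edgeR adjusted p = 0.486). With vehicle and the medium dose fitted alone, edgeR called MUC5AC as higher. In both MUC2 and MUC5AC, high-dose replicate 2 was the lowest library of its group. Without it the high-dose log2 fold change of MUC2 was −0.20 (SE 0.21, edgeR adjusted p = 0.545), and MUC5AC was higher at the high dose (log2 fold change 0.96, SE 0.19, edgeR adjusted p = 0.0105). Reads in the long repeats of these mucins are shared, so their counts are uncertain.

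Among other goblet cell products, 2 of 12 tested genes were DEGs at the high dose, both lower, and 11 of the 12 had a log2 fold change below 0 (median −0.59, against 0.01 over all genes). Several of these values rest on few counts, as SPINK4, LYPD8, GUCA2A and DMBT1 had vehicle means under 1 CPM. Their log2 fold changes were −0.92, −0.25, −1.15 and −0.79. CLCA4 (−1.17) also rested on few counts, with 10, 2 and 20 in the high-dose libraries. LYZ, the most abundant, had −0.17 (SE 0.13, edgeR adjusted p = 0.508), and WFDC2, the 1 gene above 0, had 0.27. BCAS1, a gene prominent in goblet cells, fell from 79.3, 74.3 and 69.1 CPM in vehicle to 38.2, 30.7 and 41.2 CPM (log2 fold change −1.01, SE 0.10, edgeR adjusted p = 9.14e-05). SYTL2, an effector of RAB27 in granule transport, fell from 29.7, 34.9 and 37.8 CPM to 18.7, 14.9 and 18.2 CPM (log2 fold change −0.98, SE 0.10, edgeR adjusted p = 0.000143). Both were DEGs under each of the 20 other settings. Without high-dose replicate 2, SPINK1, SPINK4 and REG4 were DEGs as well, with log2 fold changes of −0.86, −1.42 and −0.59 (edgeR adjusted p = 0.00592, 0.0470 and 0.000289).

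Of the 22 tested genes of mucin folding and granule release, 1 was a DEG at the high dose. CREB3L1, a membrane-bound factor of the secretory pathway, fell from 199, 186 and 195 CPM to 121, 74.6 and 122 CPM (log2 fold change −0.86, SE 0.16, edgeR adjusted p = 0.00622). XBP1, chosen after its values were seen because it had an adjusted p under 0.05 but a fold change under 1.5, had a log2 fold change of 0.39 (edgeR adjusted p = 0.0329). Without high-dose replicate 2, AGR3, the paralogue next to AGR2 on chromosome 7, was also a DEG (log2 fold change −0.94, SE 0.12, edgeR adjusted p = 2.57e-05). Log2 fold changes in this list were above 0 in 8 genes and below 0 in 14, with a median of −0.01.

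Of the 25 tested genes of mucin O-glycosylation, 2 were DEGs at the high dose, in opposite directions. ST3GAL4, a sialyltransferase, rose from 89.9, 84.9 and 85.3 CPM in vehicle to 127, 163 and 136 CPM (log2 fold change 0.71, SE 0.09, edgeR adjusted p = 0.000376), and it was also higher at the medium dose (0.63, SE 0.09, edgeR adjusted p = 0.00328). With scaling by library totals only, its high-dose log2 fold change was 0.57, under the fold threshold. GALNT4, which starts O-glycan chains, fell from 22.1, 20.5 and 24.6 CPM to 15.2, 13.6 and 14.1 CPM (log2 fold change −0.65, SE 0.12, edgeR adjusted p = 0.00851). Without vehicle replicate 3 its log2 fold change was −0.56, under the fold threshold. Its exon is shared with a readthrough transcript of its neighbour, so its count is uncertain. FUT3 became a DEG at the high dose, as higher, when high-dose replicate 2 was left out (log2 fold change 0.75, SE 0.21, edgeR adjusted p = 0.0223).

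Of the 16 tested secretory and epithelial transcription factors, 3 were DEGs at the high dose. The log2 fold change was below 0 in 11 of the 16 (median −0.35, against 0.01 over all genes). ASCL2 became a DEG there, as lower, when high-dose replicate 2 was left out (log2 fold change −0.72, SE 0.21, edgeR adjusted p = 0.0234). HES6, a helix-loop-helix factor that opposes HES1, fell from 22.8, 20.2 and 20.1 CPM in vehicle to 10.9, 16.0 and 11.4 CPM (log2 fold change −0.74, SE 0.13, edgeR adjusted p = 0.00513). At the medium dose it was −0.62 (SE 0.13, edgeR adjusted p = 0.0406), a call that 11 of 20 other settings did not keep, among them leaving out any 1 vehicle, medium-dose or low-dose library, with adjusted p up to 0.207. NEUROG3, the enteroendocrine factor, fell from 1.60, 1.09 and 1.27 CPM to 0.765, 0.566 and 0.492 CPM (log2 fold change −1.10, SE 0.25, edgeR adjusted p = 0.0226), and the edgeR call was lost without vehicle replicate 1 (adjusted p = 0.0726), vehicle replicate 3 (0.0597) or high-dose replicate 3 (0.109).

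POU2F3, the tuft cell factor, rose from 1.21, 0.940 and 0.615 CPM in vehicle to 2.66, 3.10 and 3.69 CPM at the medium dose (log2 fold change 1.79, SE 0.28, edgeR adjusted p = 0.00767) and to 1.62, 1.91 and 3.04 CPM at the high dose (1.302, SE 0.29, edgeR adjusted p = 0.0196). The high-dose call of edgeR was lost without vehicle replicate 2 (adjusted p = 0.0765), vehicle replicate 3 (0.0773) or high-dose replicate 3 (0.0955), and the medium-dose call without vehicle replicate 2 (0.0579). The other tuft cell markers listed differed from it. TRPM5, a cation channel of tuft cells, had 1.10, 0.940 and 1.05 CPM in vehicle and 0.360, 0.496 and 0.492 CPM at the high dose, with all 3 high-dose libraries below vehicle, and AVIL overlapped vehicle (0.566 to 1.31 CPM at the high dose against 0.940 to 1.27 CPM).

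Of the 25 tested Notch pathway genes, 2 were DEGs at the high dose, both of them ligands. DLL4 fell from 5.50, 5.46 and 6.59 CPM in vehicle to 2.21, 1.56 and 3.23 CPM (log2 fold change −1.25, SE 0.22, edgeR adjusted p = 0.00458). JAG2 rose from 9.63, 11.1 and 10.3 CPM to 17.1, 13.9 and 16.8 CPM (log2 fold change 0.63, SE 0.11, edgeR adjusted p = 0.00393). Without vehicle replicate 1 (0.58) or high-dose replicate 1 (0.58), or with scaling by library totals only (0.49), JAG2 was under the fold threshold. The median of the list was 0.00.

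The other KLF genes and the receptors and signal transducers of goblet-inducing cytokines gave no DEG at the high dose. By edgeR 3 of 11 KLF genes and 1 of 9 cytokine genes had an unadjusted p under 0.05, and DESeq2 called 0 in both lists. In the edgeR fit of all libraries 1 KLF gene had an adjusted p under 0.05 with a fold change under 1.5. At the medium dose the same held for 1 cytokine gene. KLF5, the most abundant KLF gene, had 446 ± 8.31 CPM in vehicle and 493 ± 75.4 CPM at the high dose (log2 fold change 0.15, SE 0.11, edgeR adjusted p = 0.504), and KLF13 had a log2 fold change of 0.21 (SE 0.15, edgeR adjusted p = 0.480). STAT6 and IL13RA1, which carry the interleukin-13 signal, had log2 fold changes of 0.00 (SE 0.11, edgeR adjusted p = 0.996) and −0.07 (SE 0.07, edgeR adjusted p = 0.626). Without high-dose replicate 2, KLF15 was a DEG (0.60, SE 0.15, edgeR adjusted p = 0.00803), and KLF5 (0.27, edgeR adjusted p = 0.0101) and KLF13 (0.40, edgeR adjusted p = 0.000619) had an adjusted p under 0.05 with a fold change under 1.5.

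**Figure D5:**
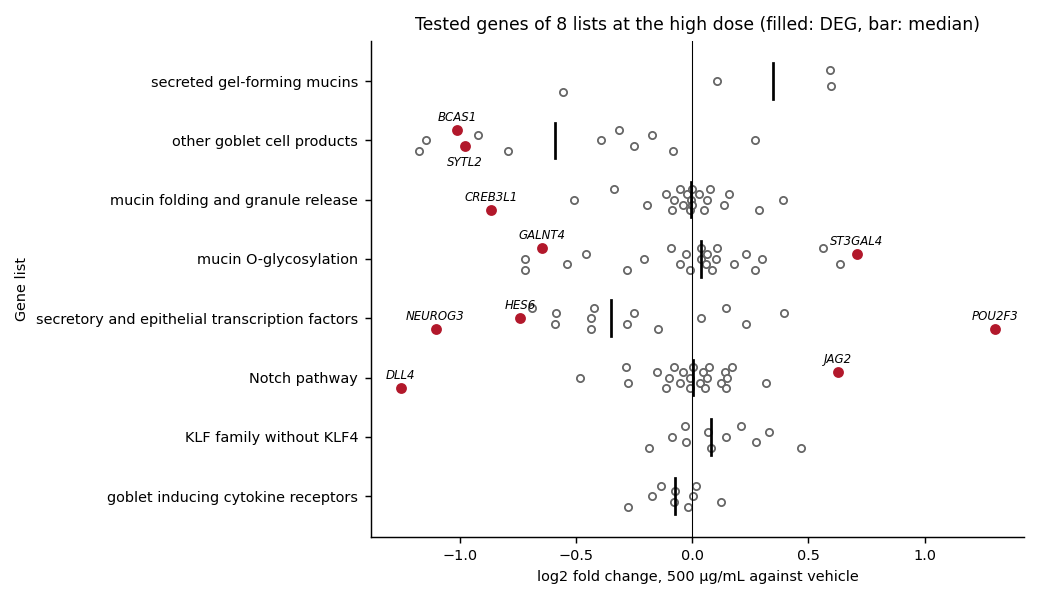
Log2 fold change at 500 µg/mL against vehicle of the tested genes in 8 lists, with DEGs filled and named and a bar at the median of each list. The other goblet cell products lie mostly below 0 (median −0.59), and the 10 DEGs are spread over 5 of the 8 lists.

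The label of the cell line was checked with marker genes. All 7 colonic epithelium markers were over 1 CPM, with sums from 10464 to 12378 CPM in vehicle and from 10683 to 12469 CPM at the high dose. The fibroblast list summed to 1.54 to 2.90 CPM and the endothelium list to 1.39 to 2.60 CPM over all libraries. The leukocyte list summed to 1274 to 1900 CPM, nearly all of it from LYZ, which secretory epithelial cells also express. The enteroendocrine list stayed under 1 CPM in every library, and the tuft cell list, which holds POU2F3, summed to 2.82 to 5.86 CPM.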

How the data were processed

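RNA-seq of HT29 cells (3 libraries each of vehicle and of ACD at 20, 100 and 500 µg/mL, 24 h) was analysed. Per the labels, the authors checked reads of 100 bp with FastQC 0.11.9, trimmed them with Trim Galore 0.6.5, aligned them to GRCh38 with STAR 2.7.3a and deposited the expected counts of RSEM 1.3.3, without normalization. The versions are those of the submitters' processing notes, and the paper's methods give other versions of Trim Galore and STAR. A treatment note names an extract of Poria cocos, whereas titles and the treatment field, used here for the groups, name ACD.

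Expected counts were rounded, filtered with filterByExpr, scaled with TMM and fitted by robust quasi-likelihood in edgeR 4.0.16 under R 4.3.3 over all 12 libraries with 4 group means, with Benjamini-Hochberg adjustment over 15374 genes. The script was tested on simulated data. CPM uses TMM effective library sizes, and log2 CPM a prior count of 2. Transcript lengths and positions came from GENCODE (GRCh38) and start-site windows from RefSeq. In each within-group pair of libraries, counts differed by more than sampling noise, so no pair held the same counts. This check cannot tell repeat libraries of 1 RNA sample from separate samples. The biological coefficient of variation was 11.2%.

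The 9 members and the 8 lists were chosen with earlier results of these data known. Named were the 9 members, every DEG of each list and otherwise up to 2 tested genes of a list with the highest vehicle CPM, the 3 genes most like each member that had a mean of at least 1 CPM and varied by over 1.5-fold, and the 2 protein-coding neighbours on either side of the trefoil genes. Alternatives were DESeq2 1.42.0, other scalings and filters, a replicate block, vehicle with each dose alone, no minimum fold change and leaving out each library.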

Additional observations from a re-analysis of the deposited data

How the results depend on the processing

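The count of list genes called as DEGs at the high dose (10) was 4 when vehicle and that dose were fitted alone and 8 to 18 when 1 library was left out, with 18 without high-dose replicate 2. The count at the medium dose (3) was 6 with vehicle and that dose alone and 1 to 6 with 1 library left out, with 6 without high-dose replicate 2 and 1 without vehicle replicate 2. Among the members the medium-dose count (0) was 2 with vehicle and the dose alone, with DESeq2 or without high-dose replicate 2 and 1 with no filter. Their high-dose count (2) was 1 with vehicle and the dose alone, 4 with library totals only or with the offset for transcript length, which was chosen after seeing the data (TFF3, FCGBP, AGR2 and ATOH1), 3 with DESeq2 (FCGBP added), 2 without high-dose replicate 3 (FCGBP in place of TFF3, which was lost) and 3 without high-dose replicate 2 (AGR2 added). No called gene changed direction under any setting run. With the replicate number as a block, the replicate block gave 9 list genes at the high and 2 at the medium dose. It lost POU2F3 at the high dose (edgeR adjusted p = 0.0514), HES6 at the medium dose (0.105) and the member TFF3. The numbers are not stated to mark shared cultures. Of 18 same-number pairs, with correlations from −0.495 to 0.372, 5 were over 0.1. The pairs of replicate 2 included the high-dose library that stood apart. These values therefore cannot tell whether libraries of the same number shared a culture. Over all genes, the DEGs at the low, medium and high dose numbered 17, 104 and 451, with 51, 191 and 172 when vehicle and the dose were fitted alone, 50, 136 and 480 with DESeq2 and 109, 249 and 768 without high-dose replicate 2. Leaving out vehicle replicate 2 gave 10 at the low, 52 at the medium and 310 at the high dose. Depth limited TFF1, TFF2 and CLCA1, which had 170, 246 and 3 counts in all.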
